A study of Mus musculus with 6 samples.

Results

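The SR proteins, the heterogeneous nuclear ribonucleoproteins (hnRNPs) and the CLK kinases were followed in mouse oligodendrocyte progenitor cells (OPCs, the glial precursors of myelin-forming cells) exposed to hemin. Members were taken by name: every gene whose symbol is Srsf with a number or begins with Hnrnp, together with Clk1, Clk2, Clk3 and Clk4. Of 38 symbols that meet this rule in the RefSeq gene table, 35 were listed in all 6 libraries, out of 18753 genes listed in any of them. These 35 comprise 11 SR genes, 20 hnRNP genes and 4 CLK genes, with 82 annotated transcripts. The other 3 symbols, Srsf3-ps, Hnrnpa1l2-ps and Hnrnpa1l2-ps2, carry pseudogene names and were listed in no library. The cells came from the cortex of neonatal wild-type C57BL/6 pups (postnatal day 1 in the sample labels), were captured with magnetic beads against PDGFRα (CD140a) and were grown for 3 days. For 12 h they then received 50 µM hemin, the oxidised iron form of heme (3 libraries), or 0.25% DMSO as vehicle (3 libraries). The series is titled as a study of ferroptosis in these cells and of white matter injury after hemorrhagic stroke. Bulk RNA from such cultures cannot tell fewer cells of a type apart from less RNA per cell, and no label says whether the 3 libraries of a group came from separate cultures. The p-values below therefore measure the spread between these libraries, which may be technical.

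Splicing removes introns from pre-mRNA, and SR proteins and hnRNPs decide much of which exons are kept. SR proteins bind exonic enhancers through RNA recognition motifs and recruit the splicing machinery through a tail rich in arginine and serine, whereas hnRNPs often bind silencers and oppose exon inclusion. CLK kinases, named after their resemblance to cell division cycle kinases, phosphorylate that tail in the nucleus and so release SR proteins from nuclear speckles. Many genes of these families hold an ultraconserved exon or intron with an early stop codon (a poison exon), whose inclusion sends the transcript to nonsense-mediated decay and lowers the protein. Clk1 and Clk4 are known for a pool of nuclear transcripts with unspliced introns that can be completed when cells are stressed.

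The alternative stretches of the 4 genes with transcripts described below are shown to the stop codon they bring into the reading frame. This stop separates the transcript from its partner without the stretch. The deposited tables give transcript lengths but no coordinates. The exons come from GENCODE vM21 on GRCm38, where each alternative stretch has the length by which the deposited transcripts differ. Capitals mark the stop codon, and every sequence is written 5′ to 3′ on the strand of the gene. Srsf3 NR_036613 is 456 bases longer than the coding NM_013663, the length of a cassette exon that starts at chr17:29039454-29039487 (plus strand). Srsf7 NR_036615 is 460 bases longer than NM_001195485, also by a cassette exon, whose start lies at chr17:80205054-80205081 (minus strand). Srsf1 NM_001078167 keeps an intron of 196 bases that NM_173374 lacks, beginning at chr11:88049216-88049269 (plus strand). Clk1 NR_027854 is 1258 bases longer than the coding NM_001042634. Only 1 combination of up to 3 of the gene's 12 introns has that length, intron 3 (871 bases) with intron 4 (387 bases). The sequence shown, at chr1:58421077-58421112 (minus strand), begins with the last 30 bases of exon 3, which the coding transcript shares. It then runs into intron 3. Clk1 NR_027853 is 91 bases shorter than NM_001042634 and lacks the exon between introns 3 and 4, at chr1:58420121-58420211 (minus strand), shown whole and without capitals.
Srsf3 cassette exon: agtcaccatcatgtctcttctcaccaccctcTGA
Srsf7 cassette exon: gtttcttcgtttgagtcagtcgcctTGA
Srsf1 retained intron: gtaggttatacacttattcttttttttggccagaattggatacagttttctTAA
Clk1 exon 3 end and intron 3: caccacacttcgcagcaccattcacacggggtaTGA
Clk1 exon left out: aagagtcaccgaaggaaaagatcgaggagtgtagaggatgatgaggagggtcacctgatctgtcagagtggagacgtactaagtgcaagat

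The libraries held 6339966 to 6523639 expected counts each (the authors' estimates of reads per transcript), and listed 15388 to 15500 genes with vehicle and 16719 to 16897 with hemin. Pearson's r between library profiles was 0.957 to 0.964 within vehicle, 0.940 to 0.955 within hemin and 0.885 to 0.905 across the groups, and Hmox1, the heme-degrading enzyme, was 126-fold higher with hemin (edgeR adjusted p = 0.000132). The 9 OPC markers looked for were all listed, but their summed level was 1220 to 1480 FPKM (fragments per kilobase, scaled by library size, a level per transcript length) with vehicle and 407 to 617 with hemin, and 7 of the 9 were called lower. Of 7 markers of myelinating oligodendrocytes, Mog was at 0 and Mag and Mobp were under 1 FPKM in every library, with sums of 31.2 to 52.3 FPKM against 25.6 to 36.4 (1 of 3 tested lower). Astrocyte markers summed to 442 to 526 FPKM with vehicle and 338 to 460 with hemin (3 of 7 lower), and neuronal markers to 175 to 204 against 111 to 137 (2 of 9 higher, 3 lower). Microglial markers summed to 6.77 to 12.7 FPKM against 16.8 to 18.0 (1 of 6 tested higher), and endothelial or mural markers to 2.68 to 5.39 against 5.44 to 10.1 (2 of 4 tested higher). The sums of OPC, neuronal, microglial and endothelial or mural markers did not overlap between the groups. Those of astrocytes and myelinating oligodendrocytes overlapped. Of all genes tested, 16.2% were called higher and 15.7% lower (edgeR adjusted p below 0.05). For 49.1% of single genes the groups did not overlap in FPKM. The part of these marker levels in the results below was not tested.

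Of the 35 members, 4 rose and 12 fell with hemin, and 19 did not pass the test. All 35 passed the filter on low counts. A call means an adjusted p below 0.05 in edgeR's quasi-likelihood test across 12783 genes, in which 31.9% of all genes were called, 16.2% higher and 15.7% lower. The members' calls were 45.7% of them in either direction and 34.3% lower. The 4 rises were a smaller share of the 35 members than the 16.2% of all genes called higher. The kinases Clk4 and Clk3 and the SR genes Srsf11 and Srsf7 rose. The SR genes Srsf9, Srsf3, Srsf1, Srsf6 and Srsf10 and the hnRNP genes Hnrnpr, Hnrnpa0, Hnrnpu, Hnrnpa3, Hnrnph2, Hnrnpul2 and Hnrnpa2b1 fell, each by 1.24-fold to 1.86-fold. In FPKM, the 3 hemin libraries all lay above the vehicle libraries for 4 members and all below for 20 members, whereas groups overlapped for 11. Over all genes tested the hemin libraries lay wholly above for 21.5% and wholly below for 27.5%, so that groups were apart for 49.1%. The median log2 fold change was -0.25 over the members, of which 26 had a negative value, and 0.00 over all genes. The count of falls depended on single libraries: it was 4 without vehicle replicate 1, 4 without vehicle replicate 2, 7 without vehicle replicate 3 and 6 without hemin replicate 2, while the rises numbered 4 or 5 with each library left out. Scaled by library totals alone, without TMM factors, 4 members were called higher and 15 lower, and over all genes the split of 2070 higher and 2006 lower calls became 1713 and 2582.

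**Figure D1:**
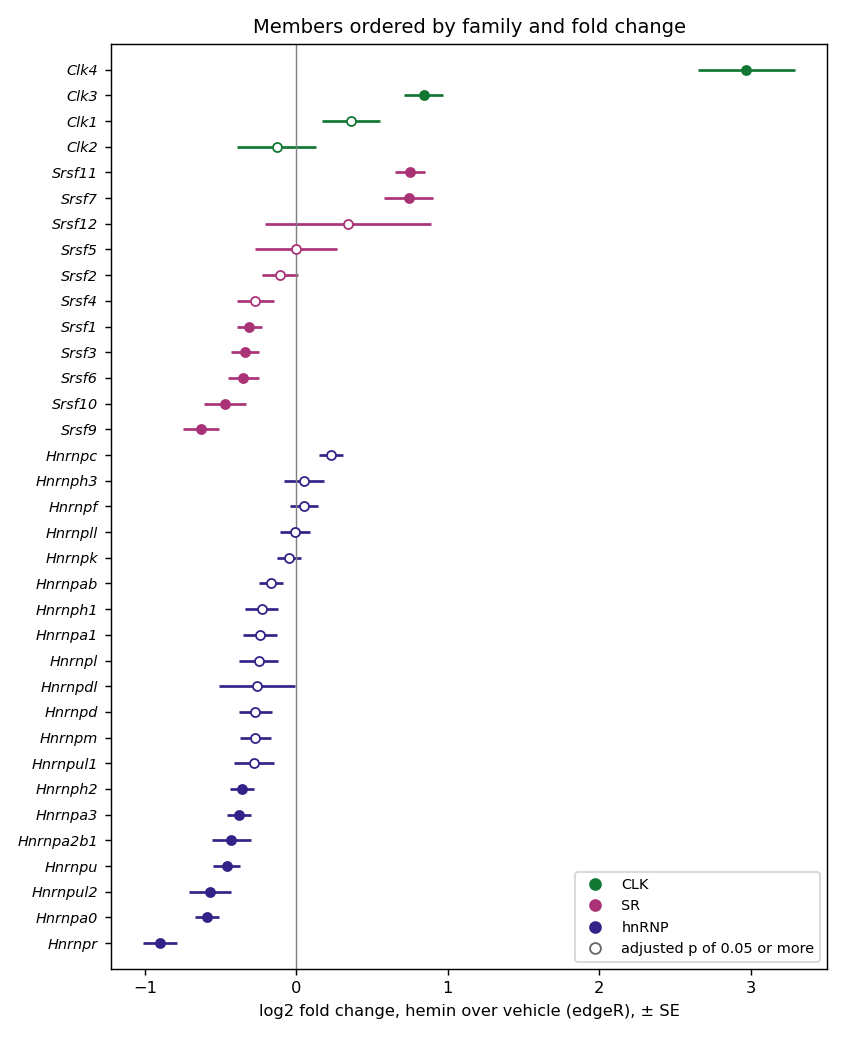
The horizontal axis gives the log2 fold change of each of the 35 members, hemin over vehicle, from edgeR, with bars of 1 standard error, and colours separate the CLK, SR and hnRNP genes. Open points did not pass an adjusted p of 0.05. Clk4 stands far to the right at 2.97, and no hnRNP gene among the filled points lies right of 0.

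Among the CLK kinases, Clk4 rose most. Clk4 stood at 2.50, 2.78 and 4.78 FPKM in the vehicle libraries and at 15.8, 30.02 and 28.02 FPKM in the hemin libraries. The lowest hemin library lay well above the highest vehicle library. It rested on 41 to 77 expected counts per vehicle library and 265 to 501 per hemin library. The edgeR fold change was 7.82-fold, a log2 value of 2.97 ± 0.32 (SE), with an adjusted p of 0.00101, and the call held under all 13 alternatives tried.

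Clk3, a kinase of the same family known from the testis, was at 16.1, 15.1 and 12.2 FPKM in vehicle and at 25.7, 23.6 and 25.6 FPKM with hemin. The groups did not overlap. The rise was 1.80-fold (edgeR adjusted p = 0.00343). Exons of Clk3 share 1199 bases with exons of Edc3, an mRNA decapping gene on the opposite strand, and whether the counting used strand was not given in the sources used here. Edc3 itself had a log2 fold change of -0.08 (edgeR adjusted p = 0.672).

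Clk1, the founding member of the family, was listed at 29.1, 45.0 and 29.2 FPKM in vehicle and at 42.9, 62.8 and 62.0 FPKM with hemin, so the groups overlapped through vehicle replicate 2. On expected counts the log2 change of 0.36 ± 0.19 (SE) did not pass the test (edgeR adjusted p = 0.193), the largest value among members not called. Limma on log2(FPKM + 1) called Clk1 higher with an adjusted p of 0.0357, and edgeR did so without vehicle replicate 2 (0.0458). Clk1's transcripts differ in length, so a move of reads to a shorter one raises FPKM more than counts. Clk2, which also phosphorylates SR proteins, was at 5.84, 6.56 and 3.56 FPKM in vehicle and at 4.45, 5.56 and 4.04 FPKM with hemin. These values overlapped fully, and the log2 change was -0.13 (edgeR adjusted p = 0.731). Summed over the 4 kinases, the level was 49.7 to 69.4 FPKM with vehicle and 88.9 to 122 FPKM with hemin.

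**Figure D2:**
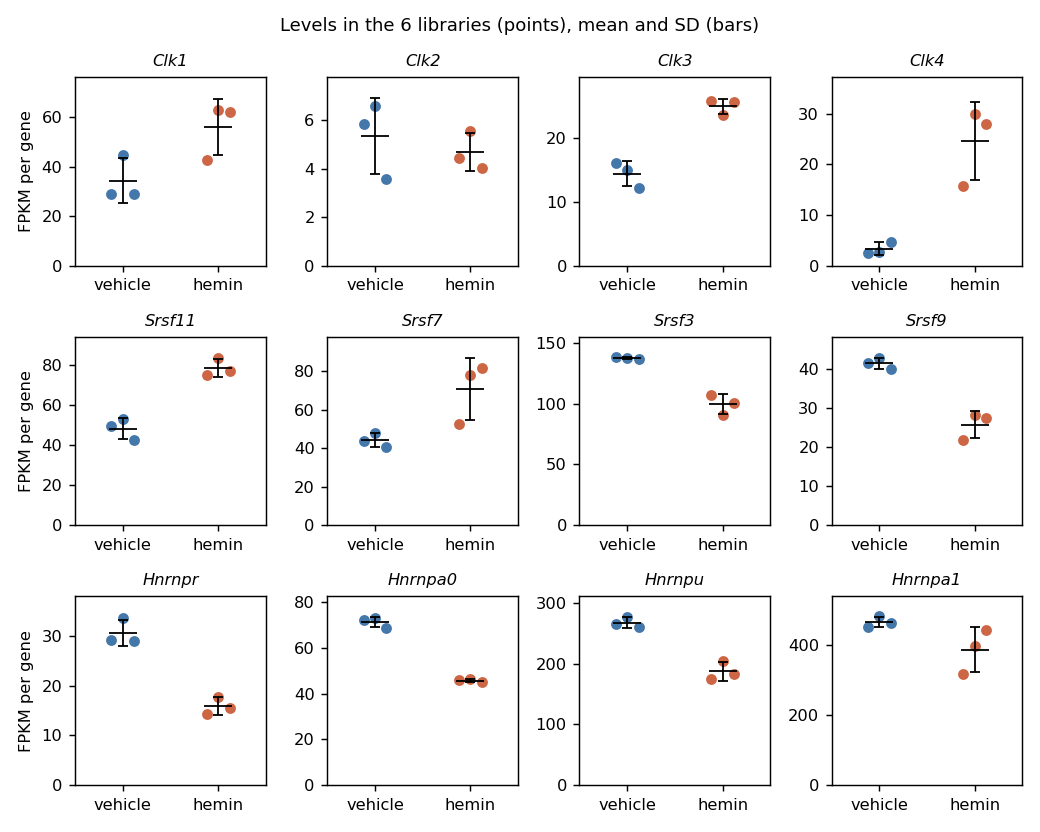
Each panel plots 1 gene, with the FPKM per gene on a vertical axis that starts at 0 and the 3 vehicle and 3 hemin libraries as points, beside the mean and SD. Clk4, Clk3, Srsf11 and Srsf7 have every hemin point above the vehicle points, and Srsf3, Srsf9, Hnrnpr, Hnrnpa0, Hnrnpu and Hnrnpa1 every hemin point below.

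Of the 11 SR genes, 2 rose, 5 fell and 4 were not called. The share called was 63.6%, and 45.5% were called lower, against 31.9% and 15.7% of all genes. Srsf11 encodes an SR-related regulator known for the inclusion of neuronal microexons. Its level was 49.6, 52.8 and 42.4 FPKM with vehicle and 75.2, 83.5 and 76.7 FPKM with hemin, with no overlap. The rise was 1.69-fold (edgeR adjusted p = 0.00223). Srsf7 encodes a shuttling SR protein with a zinc knuckle that also takes part in mRNA export. It was at 43.9, 47.7 and 40.4 FPKM in vehicle and at 52.4, 77.7 and 81.7 FPKM with hemin. Hemin replicate 1 lay closest to the vehicle libraries but still above them. The rise was 1.67-fold (edgeR adjusted p = 0.0113). Both calls held under all 13 alternatives.

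Srsf9 fell most among the SR genes. It encodes the SR protein also known as SRp30c. Its level was 41.4, 42.8 and 40.1 FPKM with vehicle and 21.7, 28.1 and 27.5 FPKM with hemin, without overlap. This was 1.55-fold lower (edgeR adjusted p = 0.00815), a call that held under all 13 alternatives. Srsf3, the smallest SR protein and an adaptor for mRNA export, was at 138, 138 and 136 FPKM in vehicle and at 107, 90.5 and 100.7 FPKM with hemin. It was 1.27-fold lower (edgeR adjusted p = 0.0258). Srsf1, the founding SR protein (SF2/ASF), stood at 103, 104 and 99.2 FPKM in vehicle and at 77.9, 85.3 and 76.3 FPKM with hemin, 1.24-fold lower (edgeR adjusted p = 0.0272). The vehicle libraries of Srsf3 and Srsf1 lay close together, and no hemin library reached them.

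Srsf6, known as SRp55, was at 91.2, 98.8 and 108.5 FPKM in vehicle and at 72.1, 71.4 and 83.2 FPKM with hemin. Every hemin library was lower, with a fold of 1.27 (edgeR adjusted p = 0.0352). Srsf10 differs from its relatives in acting as a repressor once dephosphorylated, as in heat shock. It was at 55.9, 58.4 and 51.1 FPKM in vehicle and at 45.2, 37.0 and 33.3 FPKM with hemin, 1.39-fold lower (edgeR adjusted p = 0.0417). The calls of Srsf3, Srsf1, Srsf6 and Srsf10 were lost with single libraries left out. With vehicle replicates 1, 2 and 3 left out in turn, the edgeR adjusted p was 0.0913, 0.0876 and 0.0742 for Srsf3, 0.117, 0.117 and 0.0780 for Srsf1, 0.0593, 0.112 and 0.133 for Srsf6, and 0.109, 0.123 and 0.0706 for Srsf10. Without hemin replicate 2 it was 0.0852 for Srsf3, 0.115 for Srsf6 and 0.121 for Srsf10, and without hemin replicate 3 it was 0.0514 for Srsf3, 0.0543 for Srsf1 and 0.0830 for Srsf10.

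Srsf2, Srsf4, Srsf5 and Srsf12 did not pass the test. Srsf2 (SC35), a marker of nuclear speckles, was the most abundant SR gene per length, at 173 ± 11.5 FPKM with vehicle and 155 ± 25.9 FPKM with hemin (SD, n = 3 each), with a log2 change of -0.11. Srsf4 (SRp75) was at 37.8 ± 3.52 and 30.1 ± 2.84 FPKM, a log2 change of -0.27. Srsf5, known as SRp40, read 59.4, 78.6 and 107.4 FPKM with vehicle and 62.0, 66.8 and 109.0 FPKM with hemin. Libraries of the same group thus differed more than the groups did, and the log2 change was 0.00 ± 0.27 (SE). Srsf12 was the lowest member of all, at 1.20 FPKM with vehicle and 1.45 with hemin, from 14 to 55 expected counts per library. Exons of Srsf1, Srsf2 and Srsf4 overlap genes on the opposite strand, in Srsf4 by 1532 bases of Gm12992, so reads of the partners may be counted with them.

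Of the 20 hnRNP genes, 7 fell, none rose and 13 were not called in edgeR. The share called was 35.0%, all lower, where 31.9% of all genes were called and 15.7% were called lower. Hnrnpc alone was higher at an unadjusted p below 0.05, and DESeq2 called it, so that 1 rose there and 0 in limma on log2(FPKM + 1). The hemin libraries lay wholly below the vehicle libraries for 14 of the 20 and overlapped them for 6, where 27.5% of all genes lay wholly below. Hnrnpr, a relative of Syncrip that binds axonal mRNAs, fell most. It was at 29.3, 33.7 and 29.0 FPKM in vehicle and at 14.3, 17.8 and 15.6 FPKM with hemin. Every hemin library lay far below every vehicle library, and the fold was 1.86 lower (edgeR adjusted p = 0.00136). Hnrnpa0, which binds AU-rich elements, was at 72.4, 72.9 and 68.7 FPKM in vehicle and at 45.7, 46.2 and 44.9 FPKM with hemin. Both groups were tight, and the gene was 1.51-fold lower (edgeR adjusted p = 0.00221). Hnrnpu, the scaffold attachment factor that ties RNA to chromatin, was at 265.5, 277.7 and 260.1 FPKM in vehicle and at 175, 205 and 182 FPKM with hemin. It was 1.38-fold lower without overlap (edgeR adjusted p = 0.00700). These 3 calls held under all 13 alternatives.

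Hnrnpa3, of the A/B group that binds trafficking elements in mRNA, was at 174, 177 and 166 FPKM in vehicle and at 133, 127 and 126 FPKM with hemin. It was 1.30-fold lower (edgeR adjusted p = 0.0113). Hnrnph2, which binds runs of guanine, read 73.3, 76.3 and 72.5 FPKM with vehicle and 56.9, 55.2 and 54.4 FPKM with hemin, 1.28-fold lower (edgeR adjusted p = 0.0149). Both genes had narrow groups that did not overlap. Hnrnpul2, a relative of Hnrnpu that takes part in DNA end processing, was at 52.9, 56.5 and 46.4 FPKM in vehicle and at 38.0, 34.3 and 28.6 FPKM with hemin. It was 1.49-fold lower (edgeR adjusted p = 0.0192). Hnrnpa2b1 binds the trafficking element of the mRNA for myelin basic protein in oligodendrocytes. Its level was 45.5, 54.7 and 51.8 FPKM with vehicle and 38.3, 38.6 and 31.4 FPKM with hemin, 1.35-fold lower (edgeR adjusted p = 0.0413). Of this level, a mean of 48.1% with vehicle and 54.6% with hemin was NR_104468, which GENCODE classes as a target of nonsense-mediated decay. Neither NR_104468 (edgeR adjusted p = 0.402) nor the coding NM_182650 (0.0817) and NM_016806 (0.184) was called by itself. All hemin libraries of these genes lay below their vehicle libraries.

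The calls of these 4 genes were lost with single libraries left out. Without vehicle replicate 1 and without vehicle replicate 2, the edgeR adjusted p was 0.0576 and 0.0608 for Hnrnpa3, 0.0596 and 0.0762 for Hnrnph2, 0.0629 and 0.0721 for Hnrnpul2, and 0.0572 and 0.149 for Hnrnpa2b1. It was 0.111 for Hnrnpa2b1 without vehicle replicate 3 and 0.0823 without hemin replicate 3, and without hemin replicate 2 it was 0.0563 for Hnrnph2, 0.0585 for Hnrnpul2 and 0.0754 for Hnrnpa2b1.

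The 13 other hnRNP genes had log2 changes from -0.28 (Hnrnpul1, the smallest value among members not called) to 0.23 (Hnrnpc, which measures the length of nascent transcripts). Hnrnpa1, the best-known antagonist of SR proteins, had the highest level of all members. It read 453, 483 and 463 FPKM with vehicle and 319, 398 and 445 FPKM with hemin. Each hemin library was lower, but hemin replicate 3 came close to the vehicle range, and the log2 change of -0.24 did not pass the test (edgeR adjusted p = 0.144). Next in order of vehicle level were Hnrnpk at 360.0 ± 12.6 FPKM, a poly(C)-binding protein, then Hnrnpf at 286 ± 1.68, Hnrnpab at 285 ± 8.41 and Hnrnpu at 268 ± 9.02 FPKM (SD, n = 3). Hnrnpf and Hnrnpab did not differ beyond their spread. Hnrnpk and Hnrnpf were at 335 ± 27.5 and 285 ± 16.5 FPKM with hemin, with log2 changes of -0.05 and 0.05. Hnrnpdl differed widely among the hemin libraries, at 34.3, 59.4 and 81.8 FPKM, against 67.7 to 75.6 FPKM with vehicle. Some members not called passed under an alternative: Hnrnpc without hemin replicate 1 and in DESeq2 (adjusted p = 0.0212 and 0.0346), and Hnrnpm, Srsf4 and Hnrnpab by totals alone in edgeR (0.0299, 0.0459 and 0.0470). Hnrnpa1 and other hnRNP genes have many processed copies in the genome, and how reads shared with such copies were assigned was not given in the sources used here. Hnrnpm shares 1169 exon bases with March2 on the same strand, Hnrnpab 809 with Phykpl and Hnrnpr 715 with Gm27022 on the opposite strand.

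Together the members held 1.48 to 1.55% of the expected counts of a vehicle library and 1.16 to 1.28% of a hemin library. The hnRNP genes summed to 2926 to 3053 FPKM with vehicle and 2280 to 2617 FPKM with hemin, a range that did not overlap. The SR genes summed to 786 to 844 FPKM with vehicle and 676 to 802 FPKM with hemin, and hemin replicate 3 lay inside the vehicle range. Within the hemin group, replicate 1 was the lowest library for 20 of the 35 members and replicate 2 for 4. Over all genes tested, hemin replicate 1 was the lowest of its group for 43.3% and hemin replicate 2 for 27.4%. Vehicle replicate 2 was the highest of its group for 21 members and the lowest for 1, against 33.5% and 29.9% of all genes.

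Transcripts of a member could move apart. Of 82 member transcripts 79 were tested, and 9 rose and 12 fell, where 16.9% of all 17029 transcripts were called (8.71% higher, 8.22% lower). Without vehicle replicate 1 the counts were 3 and 2, without vehicle replicate 2 they were 2 and 2, without vehicle replicate 3 they were 4 and 9, without hemin replicate 2 they were 5 and 4, and without hemin replicate 3 they were 4 and 6. A second test, diffSpliceDGE in edgeR, asked whether a transcript changed apart from its gene as a whole. It called 4 of 65 member transcripts, from 4 of 21 genes, against 0.965% of all 7253 transcripts in such genes (0.455% higher, 0.510% lower) and 2.15% of all 2926 such genes. These were Srsf3 NR_036613 and Hnrnpa1 NR_104427, whose share rose, and Clk1 NR_027854 and Srsf1 NM_001078167, whose share fell. RSEM divides reads between overlapping transcripts by estimate, an error that the spread between libraries need not show. Limma's diffSplice called 8 member transcripts, where it called 2.01% of all (1.03% higher, 0.979% lower). Among the 8 were the coding partners in Srsf3 and Clk1, Srsf1 NM_173374 and Hnrnpc NM_001170983. In a gene with only 2 tested transcripts, limma's diffSplice gives both the same p. Srsf3 NM_013663 (adjusted p = 0.00195) and Srsf1 NM_173374 (0.00401) are therefore not separate results. The number of changed shares was 0 without vehicle replicate 1 or 2, 1 without vehicle replicate 3, 1 without hemin replicate 2 and 2 without hemin replicate 3.

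**Figure D3:**
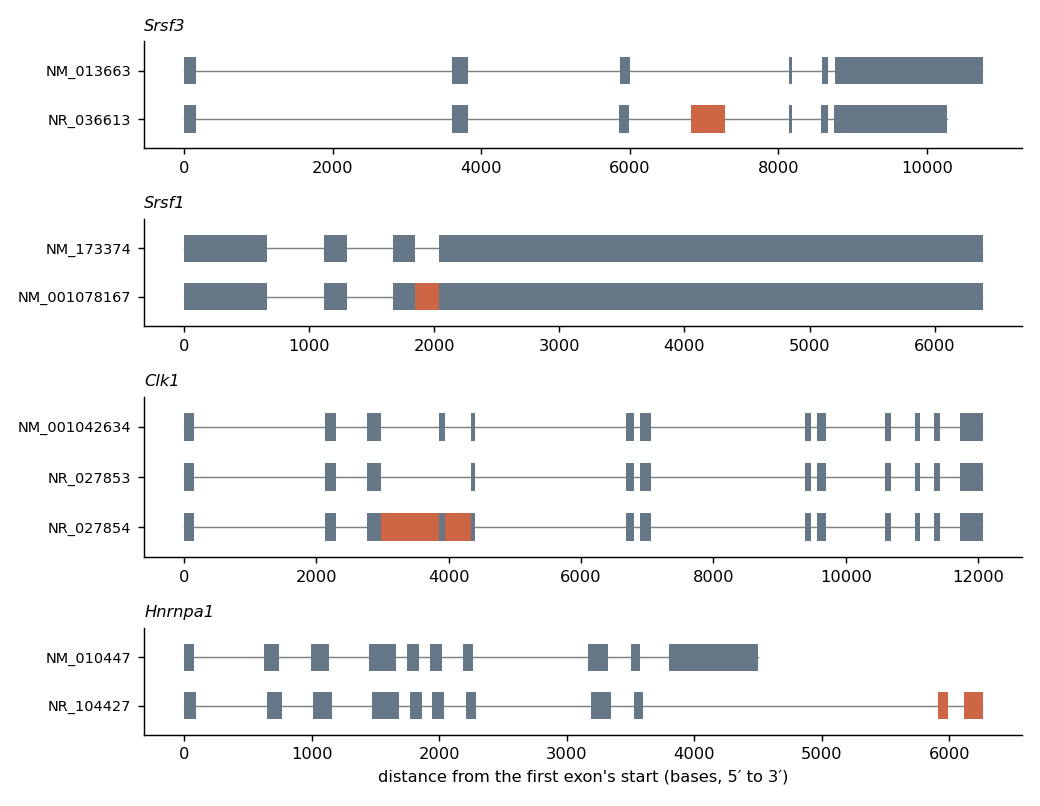
Exons (boxes) and introns (lines) of transcripts of Srsf3, Srsf1, Clk1 and Hnrnpa1 are drawn to scale against the distance in bases from the first exon's start, with the stretches that set the called transcript apart in orange. The orange stretch is a cassette exon of 456 bases in Srsf3, an intron of 196 bases in Srsf1, introns 3 and 4 in Clk1 and 2 late exons in Hnrnpa1. The outlines are GENCODE models, whose ends can differ from the deposited transcripts. Srsf3 NR_036613 is drawn to base 10265 and NM_013663 to 10745, whereas their deposited lengths differ by 456 bases alone. Srsf1 NM_001078167 and Clk1 NR_027854 were drawn by adding the introns to the model of the spliced transcript.

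Srsf3 had the smallest adjusted p of the 4 changed shares. NR_036613 includes the cassette exon with the early stop shown above, and GENCODE classes this structure as a target of nonsense-mediated decay. Its level was 17.0, 15.8 and 17.0 FPKM with vehicle and 29.0, 40.9 and 49.0 FPKM with hemin. All hemin libraries were higher, and the transcript rose 2.45-fold (edgeR adjusted p = 0.00940). The coding NM_013663 was at 121.4, 121.7 and 119.3 FPKM in vehicle and at 78.0, 49.5 and 51.6 FPKM with hemin, 1.95-fold lower (edgeR adjusted p = 0.0254). The stop-bearing transcript thus made up 12.3, 11.5 and 12.5% of the gene's FPKM with vehicle and 27.1, 45.2 and 48.7% with hemin. Its share rose by 1.64 on the log2 scale against the gene as a whole (diffSpliceDGE in edgeR, adjusted p = 0.00958). The share call was lost without vehicle replicates 1, 2 and 3 in turn (0.0668, 0.0799 and 0.0509). The level call of NR_036613 was lost without vehicle replicate 2 (0.0514), and that of NM_013663 without vehicle replicates 1, 2 and 3 (0.0874, 0.0874 and 0.0736) and without hemin replicates 2 and 3 (0.0874 and 0.0767).

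In Clk1 the intron-bearing transcript fell and the coding one rose. The intron-bearing NR_027854, of 3088 bases, was at 16.04, 21.98 and 14.05 FPKM in vehicle and at 5.71, 3.61 and 1.01 FPKM with hemin. No hemin library reached the vehicle range, and the transcript was 4.84-fold lower (edgeR adjusted p = 0.0491). The coding NM_001042634, of 1830 bases, was at 8.44, 18.0 and 7.68 FPKM in vehicle and at 32.4, 57.2 and 54.7 FPKM with hemin, 4.36-fold higher (edgeR adjusted p = 0.0184). Its share of the gene's FPKM was 29.0, 40 and 26.3% with vehicle and 75.5, 91.0 and 88.2% with hemin. The intron-bearing share fell from 55, 48.9 and 48.2% to 13.3, 5.75 and 1.63%, by 2.63 on the log2 scale (diffSpliceDGE in edgeR, adjusted p = 0.0280). The coding share missed the threshold in that test (adjusted p = 0.0567) and passed it in limma's diffSplice (0.00144). NR_027853, which leaves out the exon between the introns, was at 5.69 ± 1.51 FPKM with vehicle and 4.38 ± 2.18 with hemin (SD, n = 3) and was not called. The calls were lost with single libraries left out. Without vehicle replicates 1, 2 and 3 in turn, the adjusted p of the intron-bearing share was 0.147, 0.0810 and 0.0904 and that of its level was 0.123, 0.148 and 0.0982. Without hemin replicate 2 these were 0.140 and 0.147, and without hemin replicate 3 the share had 0.0510. The level of NM_001042634 had 0.0750 without vehicle replicate 1, 0.0580 without vehicle replicate 3, 0.0650 without hemin replicate 2 and 0.0538 without hemin replicate 3, and with no filter on low counts NR_027854 had 0.0672 for its level and 0.0514 for its share.

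In Srsf1 the intron-retaining transcript fell. By accession, GENCODE classes it as protein-coding, as it does the fully spliced NM_173374. NM_001078167, which reads into the retained intron shown above and ends at its stop codon, was at 22.7, 21.3 and 19.7 FPKM in vehicle and at 8.95, 6.06 and 4.54 FPKM with hemin. The groups lay far apart, and the transcript was 3.14-fold lower (edgeR adjusted p = 0.0129). The fully spliced NM_173374 was at 80.8, 82.4 and 79.6 FPKM in vehicle and at 68.9, 79.3 and 71.8 FPKM with hemin, a log2 change of -0.10 that did not pass the test (edgeR adjusted p = 0.403). The share of the retained form fell from 21.9, 20.5 and 19.8% to 11.5, 7.10 and 5.95%, by 1.33 on the log2 scale (diffSpliceDGE in edgeR, adjusted p = 0.0176). Without vehicle replicates 1, 2 and 3 in turn the share had an adjusted p of 0.113, 0.0920 and 0.0696, and without hemin replicate 2 it had 0.133. The level call was lost without vehicle replicate 1, vehicle replicate 2 and hemin replicate 2 (0.0564, 0.0551 and 0.0604).

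In Hnrnpa1 a minor transcript rose. NR_104427 has the same stop codon and the same 960 coding bases as NM_010447, but 2 exons of 224 bases in all follow the exon with the stop, where NM_010447 has 1. An exon junction after the stop codon is a known trigger of nonsense-mediated decay. NM_010447 has such a junction as well, so its presence alone does not set the transcripts apart. NR_104427 has a further junction, between its 2 later exons, and this one lies farther from the stop. GENCODE classes NM_010447 as protein-coding and gives NR_104427 the class of nonsense-mediated decay. NR_104427 was at 15.1, 21.6 and 21.2 FPKM in vehicle and at 35.9, 29.7 and 40.9 FPKM with hemin. All hemin libraries were higher, by 1.89-fold in edgeR (adjusted p = 0.0276). Its share of the gene's FPKM was 3.34, 4.48 and 4.59% with vehicle and 11.2, 7.46 and 9.20% with hemin, a rise of 1.17 on the log2 scale (diffSpliceDGE in edgeR, adjusted p = 0.0303). Leaving out any 1 of the 6 libraries ended the share call, with adjusted p from 0.0608 (hemin replicate 3) and 0.0615 (hemin replicate 2) through 0.0838 (hemin replicate 1), 0.0919 (vehicle replicate 3) and 0.114 (vehicle replicate 2) to 0.211 (vehicle replicate 1), as did leaving out the filter on low counts (0.0707). The level call was lost without vehicle replicates 1, 2 and 3 (0.0778, 0.0805 and 0.0628) and without hemin replicates 1 and 3 (0.0607 and 0.0730).

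**Figure D4:**
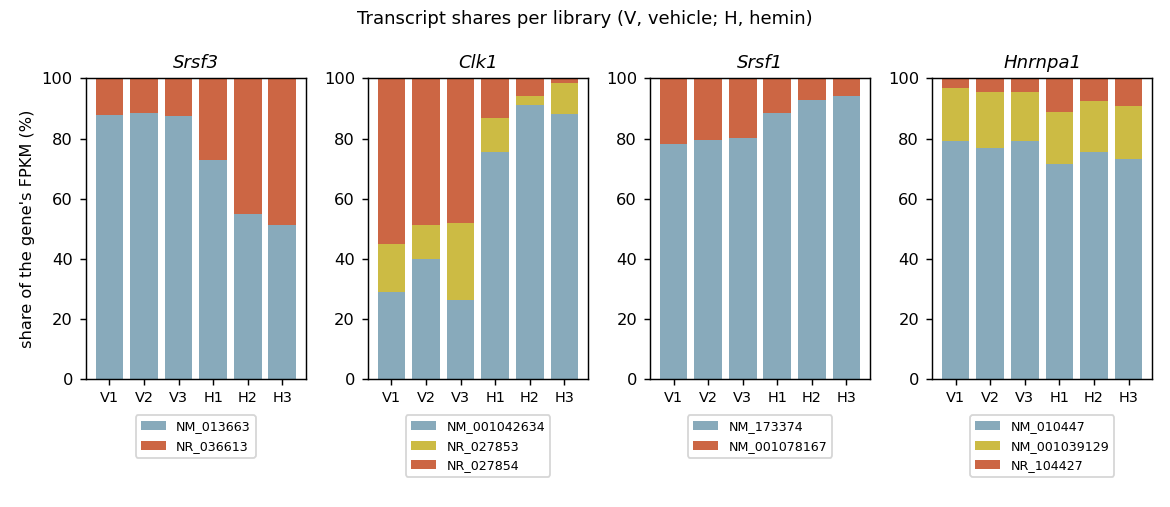
Stacked bars give each transcript's share of its gene's FPKM in percent, per library (V1 to V3 vehicle, H1 to H3 hemin), for Srsf3, Clk1, Srsf1 and Hnrnpa1. Srsf3 NR_036613 widens from 11.5 to 12.5% with vehicle to 27.1 to 48.7% with hemin, while Clk1 NR_027854 and Srsf1 NM_001078167 shrink in every hemin library.

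The non-coding transcripts of members did not all move one way. Across the families 7 transcripts with the RefSeq prefix NR (non-coding) belong to 6 genes, and 2 rose, 1 fell and 4 were not called. GENCODE does not give all of them the class of nonsense-mediated decay: Clk1 NR_027854, which fell, and Srsf9 NR_036616 match transcripts that it classes as protein-coding. The match rests on accession alone. For NR_027854 this class does not describe the structure read from its length, which keeps introns 3 and 4 with an early stop. The share of the NR transcripts rose for 2 and fell for 1, against 1.33% called in either direction of 376 such transcripts in all genes. In Srsf7, NR_036615 with its cassette exon was at 2.71, 1.61 and 4.09 FPKM in vehicle and at 1.80, 8.13 and 8.75 FPKM with hemin. Hemin replicate 1 lay within the vehicle range, and neither its level (edgeR adjusted p = 0.276) nor its share was called. The coding Srsf7 transcripts NM_146083 and NM_001195485 rose, 2.58-fold and 1.38-fold (edgeR adjusted p = 0.0187 and 0.0309). Clk4 rose through NM_007714, at 1.92, 1.92 and 2.77 FPKM with vehicle and 14.3, 29.7 and 26.7 FPKM with hemin (11-fold, edgeR adjusted p = 0.00403). Its other transcript, NM_001304744, was at 1.15 ± 0.758 and 1.06 ± 0.661 FPKM (SD, n = 3) and was not called. The single transcript of Clk3, NM_007713, rose 1.79-fold (edgeR adjusted p = 0.0115, and 0.0533 without vehicle replicate 2). Hnrnpc NM_001170981 rose 1.58-fold in a gene that was not called (edgeR adjusted p = 0.0135, 0.0662 without vehicle replicate 1 and 0.0646 without vehicle replicate 2). Neither transcript of Clk2, NM_007712 or NM_001163432, was called, with log2 changes of 0.06 and -0.56. Both Srsf7 calls were lost without vehicle replicates 1, 2 and 3 in turn (0.0563, 0.0752 and 0.0555 for NM_146083, 0.119, 0.0927 and 0.0931 for NM_001195485) and without hemin replicates 2 and 3 (0.0656 and 0.0519, 0.0914 and 0.0720), and that of NM_001195485 also by totals alone (0.0613) and with no filter (0.0555).

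The promoter of Clk4 was the only member promoter with the cAMP response element TGACGTCA, the palindrome bound by CREB and ATF factors, and is shown for that reason. The window below is from RefSeq (GRCm38.p6), at chr11:51263009-51263096 on the plus strand, with the element in capitals, 65 to 58 bases before the start of the gene.
Clk4 promoter: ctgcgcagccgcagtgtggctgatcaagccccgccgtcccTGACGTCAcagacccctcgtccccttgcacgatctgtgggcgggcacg
Promoters are windows of the same length around each start, read on both strands, and the table held 32 of the 35 members. The element occurred in 1 of 44 member promoters and in 1.79% of 32851 promoters in all. The antioxidant response element core TGACNNNGC occurred in 13 of 44 member promoters, from 10 genes, and in 12.4% of all. Among these 10 genes Clk3 rose, Hnrnpa3, Srsf3 and Srsf6 fell and the other 6 were not called. TGATGNAA, a core shared by CHOP and ATF4, occurred in 2 member promoters (3.97% of all), and the heat shock element cores TTCNNGAA and GAANNTTC, which can overlap each other, in 2 and 5 (8.52% and 7.86% of all). A match describes the letters and shows no binding.

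Other genes of the pathway were taken as lists. Of 10 tested kinases and phosphatases of SR proteins besides the CLKs, none rose and 3 fell in edgeR. Srpk1 alone was higher at an unadjusted p below 0.05, and DESeq2 and limma called 0 higher. Prpf4b, a kinase of the spliceosome, was at 21.9, 22.5 and 19.9 FPKM in vehicle and at 6.44, 11.4 and 9.47 FPKM with hemin, 2.29-fold lower (edgeR adjusted p = 0.00332). Ppp1cc, a catalytic subunit of protein phosphatase PP1, was 1.38-fold lower (edgeR adjusted p = 0.00781). Srpk2, which phosphorylates SR proteins in the cytoplasm, was 1.28-fold lower (edgeR adjusted p = 0.0164), a call lost without vehicle replicates 1, 2 and 3 (0.0525, 0.0950 and 0.0520) and hemin replicate 2 (0.0598). Among 26 SR-related proteins 6 rose and 3 fell, so that 34.6% were called. Those named are Pnisr (1.88-fold), Rsrc2 (1.69-fold), Sfswap (1.53-fold, a regulator of its own splicing) and Scaf4 (1.46-fold) on the higher side, and Ddx46 (1.54-fold), Scaf8 (1.48-fold) and Luc7l2 (1.41-fold) on the lower side. The call of Rsrc2 was lost without vehicle replicate 1 (edgeR adjusted p = 0.0523) and hemin replicate 2 (0.0796), and that of Scaf4 without vehicle replicates 1 and 2 (0.0730 and 0.0792).

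HnRNP proteins that carry other names moved in both directions. Of 20 such genes, 5 rose and 4 fell. The polypyrimidine tract binding proteins Ptbp3 (1.77-fold) and Ptbp1 (1.52-fold) rose, as did Igf2bp1 (3.51-fold), which stayed under 1 FPKM in every library, Pcbp1 (1.22-fold) and Elavl1 (1.29-fold). Syncrip, the relative of Hnrnpr, was at 84.4, 88.7 and 82.2 FPKM in vehicle and at 58.6, 54.7 and 51.9 FPKM with hemin, 1.58-fold lower (edgeR adjusted p = 0.00275). Khsrp (1.55-fold), Pcbp4 (1.47-fold) and Tardbp (1.32-fold, the protein TDP-43) also fell. Tardbp was not called without vehicle replicates 1 and 2 (edgeR adjusted p = 0.0584 and 0.0661). Pcbp1, Elavl1 and Pcbp4 were each lost under at least 6 of 13 alternatives. Without vehicle replicates 1 and 2 in turn, Pcbp1 had an adjusted p of 0.0838 and 0.116, Elavl1 had 0.0968 and 0.124, and Pcbp4 had 0.149 and 0.0999. Without vehicle replicate 3 Pcbp1 had 0.0558 and Pcbp4 had 0.12, and without hemin replicate 2 the 3 genes had 0.0777, 0.0633 and 0.103. Scaling by totals alone gave Pcbp1 0.0837 and Elavl1 0.0764, no filter gave them 0.0727 and 0.0728, limma on log2(FPKM + 1) gave Elavl1 0.0554 and upper-quartile factors gave Pcbp4 0.0612.

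Among 28 tested regulators of alternative splicing from other families, 4 rose and 9 fell. The neuronal factor Nova2 was at 8.21, 8.17 and 8.73 FPKM in vehicle and at 2.68, 2.55 and 2.81 FPKM with hemin, 3.01-fold lower (edgeR adjusted p = 0.000200). Qk, the quaking protein needed for myelin mRNAs, was at 272, 274 and 264 FPKM in vehicle and at 137, 171 and 148 FPKM with hemin, 1.71-fold lower (edgeR adjusted p = 0.00164). Both sets of libraries lay apart. Rbm3, a cold shock protein, was 1.74-fold lower and Celf5 was 2.54-fold lower. The muscleblind proteins Mbnl2 and Mbnl1 rose 2.51-fold and 2.57-fold, with Mbnl1 at 5.55, 4.20 and 6.73 FPKM against 14.6, 14.7 and 11.8 FPKM (edgeR adjusted p = 0.00303). Zranb2 (1.37-fold) and Rbm5 (1.33-fold) were also called higher. Zranb2 was lost without vehicle replicates 1 and 2 and hemin replicate 2 (edgeR adjusted p = 0.0567, 0.0556 and 0.0566). Rbm5 was lost under 9 of 13 alternatives, with adjusted p of 0.143, 0.0727 and 0.0935 without vehicle replicates 1, 2 and 3, 0.135 and 0.0506 without hemin replicates 2 and 3, 0.0930 by totals alone, 0.0775 with no filter and 0.0701 in limma on log2(FPKM + 1).

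Of 44 core snRNP and 3′ splice site proteins, 10 rose and 3 fell, so that 29.5% were called, against 31.9% of all genes. Snrnp48, a protein of the minor spliceosome, was at 9.36, 9.66 and 10.02 FPKM in vehicle and at 32.7, 32.8 and 25.7 FPKM with hemin, 3.27-fold higher (edgeR adjusted p = 0.000481). Sf3b4 (1.61-fold) and Sf3b1 (1.42-fold), both of the U2 particle, and U2af1 (1.44-fold), which reads the 3′ splice site, also rose. Prpf31 (1.51-fold), Snrpd1 (1.43-fold) and Eftud2 (1.26-fold) fell. Eftud2 was lost without vehicle replicates 1, 2 and 3 (edgeR adjusted p = 0.109, 0.140 and 0.139), without hemin replicates 2 and 3 (0.0535 and 0.0576) and with upper-quartile factors (0.0537). Of 16 tested genes of nonsense-mediated decay and the exon junction complex, 2 rose and none fell in edgeR. At an unadjusted p below 0.05 Smg5 and Gspt1 were lower, 2 genes, while DESeq2 called 0 lower and limma on log2(FPKM + 1) called 2. Etf1, the release factor that reads stop codons, was at 51.0, 50.8 and 56.8 FPKM in vehicle and at 115.5, 86.5 and 81.8 FPKM with hemin, 1.86-fold higher (edgeR adjusted p = 0.00600), and Smg8, which regulates the decay kinase, was 1.60-fold higher. Over the 6 lists, the share of tested genes called ran from 12.5% in the decay list to 46.4% among the other alternative splicing regulators, where all genes gave 31.9%.

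**Figure D5:**
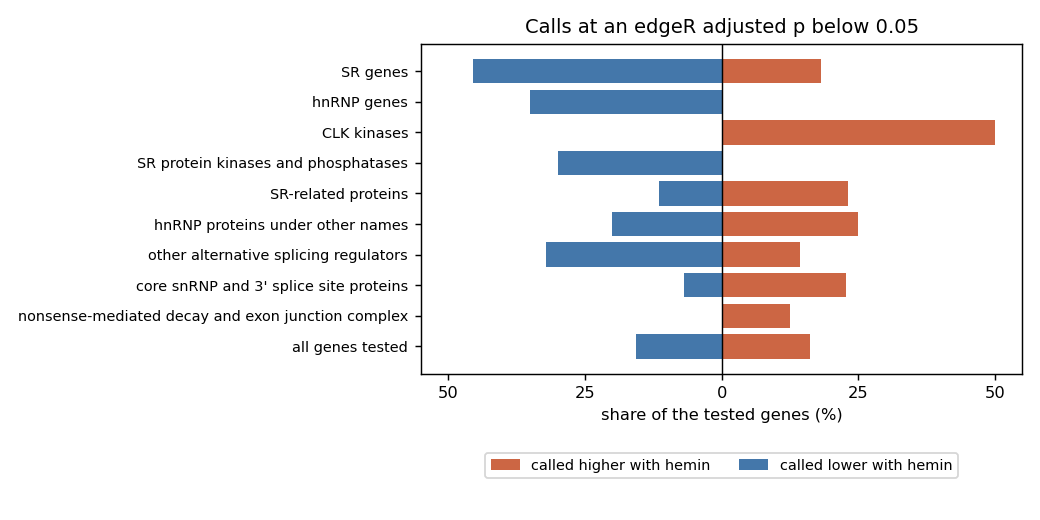
Bars give the percentage of the tested genes of each list that edgeR called lower (left, blue) or higher (right, orange) with hemin, with all genes tested at the bottom. The hnRNP genes and the SR kinases and phosphatases have bars only on the left, the CLK genes and the decay list only on the right.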

How the data were processed

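RNA-seq libraries from 3 vehicle and 3 hemin samples were compared, grouped by their titles. Per the file headers, the deposited tables hold expected counts, which the authors estimated per transcript, and FPKM, which the authors scaled by transcript length and library size. The submitters' processing notes name Bowtie 0.12.2, RSEM without a version, and the builds mm8 and mm9 without a role. Annotation release, strand and read filters were not given in the sources used here, and the tables of unannotated features were not used here. The tables list features above 0 only, so a missing one was set to 0. Transcripts were summed by gene identifier to 18753 genes, of which 18706 matched a symbol in RefSeq (GRCm38.p6) and 47 did not.

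Expected counts were rounded to integers. The package edgeR 4.0.16 (R 4.3.3) removed low features with filterByExpr, scaled by TMM and tested hemin against vehicle with glmQLFit and glmQLFTest, two-sided, adjusted by Benjamini-Hochberg over all 12783 genes or 17029 transcripts, with calls at 0.05. A low feature can pass the filter through 1 group alone. The standard error is the log2 fold change divided by the square root of F. The biological coefficient of variation was 0.208 for genes and 0.446 for transcripts. Shares were tested with diffSpliceDGE. Alternatives were DESeq2 1.42.0, limma 3.58.1 on log2(FPKM + 1) and log2(FPKM + 0.1), limma's diffSplice on voom values, other scalings, no filter on low counts, the replicate number as a block, and each library left out in turn. With a library left out, its group holds 2 libraries. The scripts were tested on simulated data.

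Named are all called members, every SR and CLK gene, the largest and smallest change among members not called, every transcript with a changed share, every tested transcript of the CLK genes, and from each related list up to 4 called genes in the prevailing direction and 2 in the other. Scaf8, Tardbp, Pcbp4, Elavl1, Zranb2, Rbm5 and Eftud2, and the other transcripts and genes not called that are named with values, fall outside this rule and were chosen after their values were seen. Members, lists and tests were chosen with earlier results of these data known.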

Additional observations from a re-analysis of the deposited data

How the results depend on the processing

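The 4 rises among members held in number (4 or 5) under every alternative run, and the calls of Clk4, Clk3, Srsf11, Srsf7, Srsf9, Hnrnpr, Hnrnpa0 and Hnrnpu were kept under all 13. Counts were less steady with a library left out, which also leaves fewer samples: genes called ranged from 2552 to 4527, members lower from 4 to 12, member transcripts higher from 2 to 8 and lower from 2 to 12, and changed shares from 0 to 4. DESeq2 called 21 member transcripts lower. Limma's diffSplice gave 8 changed shares, with both transcripts of Srsf3 and of Srsf1 counted at the same p, and no filter on low counts gave 2. Totals alone moved the members' median log2 fold change to -0.338, where the median of all genes moved from 0.00 to -0.09. Directions turned only for values not called, and the cause was not tested. By totals alone these were Hnrnpf (-0.05), Hnrnph3 (-0.04) and Clk2 NM_007712 (-0.02), with upper-quartile factors Srsf5 (0.01), in limma with a pseudocount of 1 Hnrnpf (-0.01), and with 0.1 Hnrnpf (-0.01) and Hnrnph3 (-0.01). With single libraries left out, log2 changes ranged from -0.33 to 0.05 for Clk2, -0.02 to 0.76 for Srsf12, -0.29 to 0.28 for Srsf5, -0.03 to 0.10 for Hnrnpf, -0.04 to 0.13 for Hnrnph3, -0.05 to 0.06 for Hnrnpll, -0.48 to 0.57 for Clk4 NM_001304744, -0.15 to 0.33 for Clk2 NM_007712 and -0.64 to 0.02 for Clk1 NR_027853. Srsf12 rested on 14 to 55 expected counts per library, which limits its precision.

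With the replicate block, 3730 genes were called, with 4 members higher and 11 lower (Hnrnpa2b1 lost, edgeR adjusted p = 0.0642), 5 member transcripts higher and 3 lower, and 0 changed shares in diffSpliceDGE (10 at an unadjusted p below 0.05, and 4 adjusted without the block). Residuals of same-numbered libraries correlated at 0.0644, 0.1 and 0.158, too weakly to show that the numbers pair samples. Although 6 of 6 libraries correlated best with their own number, these are 3 pairs counted from both sides. The residuals were also centred within each group of 3, which ties them to each other. The count is thus at most a weak hint from the data and not from the design.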
